A study of Mus musculus with 12 samples.

Results

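XY support cells of the mouse gonad at embryonic day 11.5 (E11.5) were set against support cells of the other sex and of the next day, to find RNAs that were high or low in XY cells at E11.5 and nowhere else among the groups measured. The members are the 3 arrays labelled XY E11.5, of 12 arrays in all. They were chosen by sex and day alone, and their mean was compared with the mean of XX E11.5, XX E12.5 and XY E12.5, each group weighted equally. A peak is used here for an RNA above each of the 3 other groups, and a dip for one below each of them. Levels before E11.5 and after E12.5 were not measured.

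Each group consisted of 3 pools of somatic support cells sorted by flow cytometry, with 1 Affymetrix mouse array per pool. The groups were XY E11.5, XX E11.5, XX E12.5 and XY E12.5, with the tissue labelled testis for XY and ovary for XX. All groups came from 1 transgenic FVB.Cg strain, so every group carried the tyrosinase transgene Tg(Tyr)3412ARpw and also Tg(Sry-EGFP)92EI, a reporter that places EGFP under Sry sequences. The marker used in the sort is not given in the labels. Nor do they tie a pool to a litter, and if pools shared one, the p-values reflect a spread that is partly technical.

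The supporting lineage of the early gonad can become Sertoli cells or granulosa cells. In XY cells the Y-linked gene Sry is switched on for a short time, and its protein, an HMG-box transcription factor, raises Sox9, which then maintains its own expression with the help of Fgf9 and directs Sertoli fate. Sry RNA falls again once Sox9 is established, so the cells pass through a brief state in which Sry and early Sertoli genes overlap with genes of the bipotential gonad. In XX cells the WNT pathway and Foxl2 direct granulosa fate.

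The values are log2 signals per probe set, a group of oligonucleotides that reads 1 transcript region, and 44238 probe sets were tested. Array medians ran from 6.494 to 6.592. The median SD between pools was 0.205 in XY E11.5, against 0.243 in XX E11.5, 0.18 in XX E12.5 and 0.176 in XY E12.5. Pool 3 and pool 2 of XX E11.5 stood at the ends of the first component of the residuals, with scores of 70.5 and -51.7, and the XY E11.5 pools scored 30.5, -42.7 and 12.2. This component held 23.1% of the residual variance. No scan or hybridization batch is given in the sources used here. The background was taken from Y-linked Kdm5d, Uty and Eif2s3y, at the 5 probe sets where all XY arrays lay above every XX array. They read 3.33 to 5.17 in XX cells, where their target is missing. Sry, whose sequences the reporter carries too, was not used, and its brighter probe set read 6.82 to 7.39 in XX cells. Where the compared level lies in that range, a fold is given as at least the value measured.

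Both markers of XY E11.5 cells, Abcb1a and Sry, were higher in each of its 3 pools than in any other array. They were given in advance as markers and are peaks of the contrast below, so this is no check of what the cells are. Support lineage markers were present as well: Wt1 read 12.45, 12.73 and 12.46, Gata4 9.61, 10.57 and 9.65, and Nr5a1 11.71, 12.30 and 11.72 in the XY E11.5 pools. Germ cell transcription factor Pou5f1 read 5.78 to 6.10 in XY E11.5, against 5.53 to 6.77 in the other arrays.

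In the contrast with the mean of the other groups 155 probe sets were called by limma at a Benjamini-Hochberg adjusted p under 0.05, which is 0.35% of those tested. Of these, 107 were higher (0.242%) and 48 lower (0.109%) in XY E11.5, and 5251 had an unadjusted p under 0.05. The called probe sets fell into distinct shapes. In 38 (0.0859% of all tested) XY E11.5 stood above each of the 3 groups at an unadjusted p under 0.05, and in 10 (0.0226%) below each of them. All 3 XY E11.5 pools lay above the 9 other arrays in 30 of the 38 peaks and below them in 9 of the 10 dips. Over all probe sets the shares are 0.567% above and 0.423% below, or 0.99% in either direction, and since peaks and dips were chosen for such differences the counts only describe them. A stricter test, in which the largest of the 3 pairwise p-values was adjusted over all probe sets, called 5 (0.0113%), all higher and 1 of them with every value in the background range, and 299 (0.676%) passed it without adjustment, 183 higher and 116 lower. The count of 155 was 53, 57 and 326 without XY E11.5 pools 3, 1 and 2, 89 and 369 without XX E11.5 pools 1 and 3, 85 and 77 without XX E12.5 pools 2 and 3, and 94 without XY E12.5 pool 3. The 48 peaks and dips were 27 without XY E11.5 pool 1 or 3, 184 without pool 2, 168 without XX E11.5 pool 3, 28 and 31 without XX E12.5 pools 2 and 3, and 30 without XY E12.5 pool 3. The 10 dips alone were 2 without XY E11.5 pool 3, 39 without pool 2, 32 without XX E11.5 pool 3, and 4 and 5 without XX E12.5 pools 2 and 3, and in each of the 12 fits that left out 1 array no member changed direction. With 1 probe set per gene the split was 10 peaks and 12 dips, among 44 higher and 52 lower calls.

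**Figure D1:**
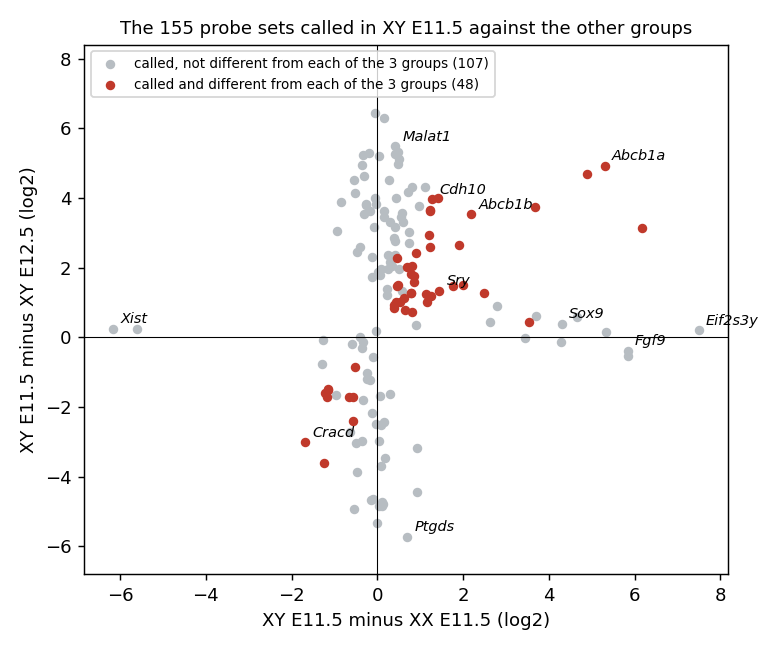
Each point is 1 of the 155 called probe sets, placed by the log2 difference of XY E11.5 from XX E11.5 (x axis) and from XY E12.5 (y axis), with the 48 peaks and dips in red and the other calls in grey. Abcb1a lies high on both axes, at 5.30 and 4.93, whereas Sox9 and Fgf9 lie near 0 on the y axis and Malat1 near 0 on the x axis.

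Of the 107 probe sets higher in XY E11.5, 43 differed from both E12.5 groups but not from XX E11.5, 12 from both XX groups but not from XY E12.5, 13 from XY E12.5 alone and 1 from XX E12.5 alone, at an unadjusted p under 0.05. Of the 48 lower, 15 differed from both E12.5 groups, 14 from XY E12.5 alone, 5 from both XX groups, 3 from XX E12.5 alone and 1 from XX E11.5 and XY E12.5. The nearest group was XX E11.5 for 26 of the 38 peaks, XY E12.5 for 10 and XX E12.5 for 2. For the dips it was XX E11.5 in 7 and XX E12.5 in 3. The distance to the nearest group had a median of 0.97 log2 units over peaks (0.39 to 4.93) and of -0.96 over dips (-0.53 to -1.37).

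**Figure D2:**
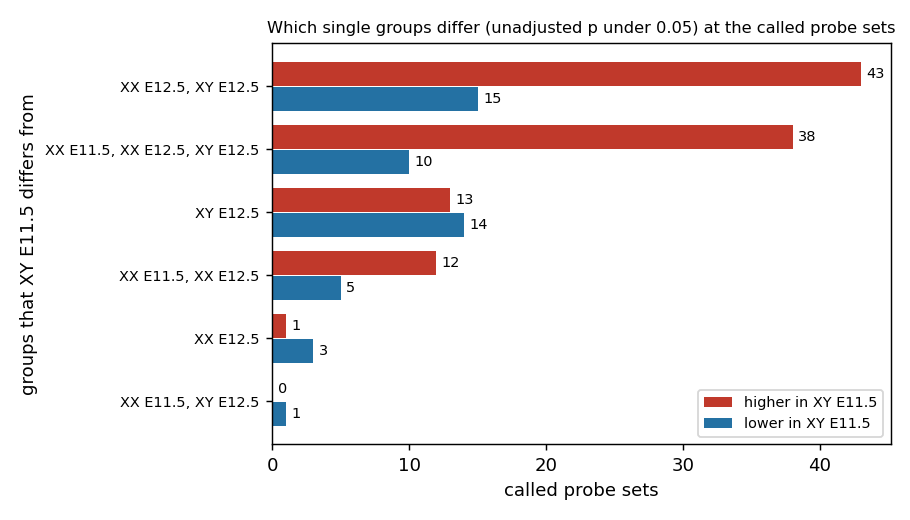
Bars give the number of called probe sets, split by which of the 3 other groups XY E11.5 differed from at an unadjusted p under 0.05, for probe sets higher and lower in XY E11.5. Differences from both E12.5 groups make up the longest bar in each direction, with 43 higher and 15 lower, against 38 and 10 for differences from all 3 groups.

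Abcb1a, which encodes a P-glycoprotein that pumps lipophilic compounds out of cells, was the clearest peak. It was present in XY cells at E11.5 and at background in every other group. At 1 of its probe sets the XY E11.5 pools read 9.28, 9.58 and 8.42. XX E11.5 read 3.70, 3.88 and 3.80, XX E12.5 read 3.94, 3.79 and 3.50, and XY E12.5 read 3.94, 3.89 and 4.67. The lowest XY E11.5 pool therefore lay far above the highest of the 9 other arrays, all 9 of them in the background range. The log2 difference from the mean of the others was 5.19 ± 0.24 (SE), at least 36.6-fold (95% interval 25.2 to 53.0; limma adjusted p = 9.6e-06), and at least 39.4-fold against XX E11.5, 40.7-fold against XX E12.5 and 30.5-fold against XY E12.5. The other probe set read 8.45, 8.50 and 8.26 in XY E11.5, against 4.45 to 4.96 in XX E11.5, 4.81 to 4.85 in XX E12.5 and 4.40 to 4.90 in XY E12.5. Again the groups did not overlap, and the fold was at least 12.7 (10.4 to 15.5; limma adjusted p = 8.7e-07). Both passed the stricter test, with an adjusted p of 0.00016 and 2.5e-05 in limma, and both kept every call without any 1 of the 12 arrays. In pooled cells, more cells with the RNA and more RNA per cell cannot be told apart.

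Abcb1b, the neighbouring gene for the second mouse P-glycoprotein, peaked as well but from a higher floor. At 1 of 2 probe sets it read 10.23, 10.27 and 9.33 in XY E11.5, against 7.99, 7.40 and 7.89 in XX E11.5, 5.40, 6.65 and 5.88 in XX E12.5 and 7.31, 6.28 and 5.64 in XY E12.5. All 3 XY E11.5 pools were above all others, and XX E11.5 was next, above both E12.5 groups. The fold against the mean of the others was 9.36 (95% interval 5.31 to 16.5; limma adjusted p = 0.0061). Against XX E11.5 alone the log2 difference was 2.18 and its adjusted p over all probe sets 0.25. The other Abcb1b probe set differed by 0.09 ± 0.11 (SE). In XX E11.5, where Abcb1b read 7.40 to 7.99, both Abcb1a probe sets read at background.

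The promoter windows of both P-glycoprotein genes are shown because the genes lie side by side on chromosome 5 and peaked in the same pools. The windows run from 250 bases before to 50 after the annotated start in RefSeq (GRCm38.p6), at chr5:8566841-8567140 on the + strand for Abcb1a and chr5:8797897-8798196 on the + strand for Abcb1b. Capitals mark matches, on either strand, to any of 5 motifs. The motif AACAAT is the core bound by SOX proteins, and AGATAA is the core bound by GATA factors. The letters searched for the TATA box, an element close to many start sites, were TATAAA. The others were CCAAT, which NF-Y binds, and the GC box GGGCGG, which SP1 binds.
Abcb1a: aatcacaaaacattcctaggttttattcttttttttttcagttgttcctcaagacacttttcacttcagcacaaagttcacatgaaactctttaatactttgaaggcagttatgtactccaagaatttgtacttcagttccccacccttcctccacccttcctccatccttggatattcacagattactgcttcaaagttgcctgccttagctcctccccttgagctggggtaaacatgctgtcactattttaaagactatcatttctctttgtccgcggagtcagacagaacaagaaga
Abcb1b: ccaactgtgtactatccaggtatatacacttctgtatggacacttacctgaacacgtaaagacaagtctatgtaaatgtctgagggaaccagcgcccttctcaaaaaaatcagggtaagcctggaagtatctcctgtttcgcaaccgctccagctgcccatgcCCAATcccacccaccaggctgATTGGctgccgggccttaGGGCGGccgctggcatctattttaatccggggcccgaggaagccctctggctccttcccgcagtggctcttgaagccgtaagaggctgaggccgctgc
The Abcb1b window held 2 matches to CCAAT and 1 to the GC box, and the Abcb1a window none of these letters. Over the 19 windows of the 18 peak genes in the RefSeq table, 2 held the SOX core, 1 the GATA core, 5 the TATA box, 4 CCAAT and 10 the GC box. Over all 32851 windows of the table the shares were 10.7%, 11.2%, 13.6%, 37.4% and 35.7% in that order. Of the 13 windows of 8 dip genes 0, 2, 2, 1 and 6 held them.

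No other gene measured around this locus was called. RefSeq places Dbf4, Slc25a40 and Rundc3b before Abcb1a, and Abcb4 and Crot after Abcb1b. This set of neighbours was chosen after its values were seen. Rundc3b differed by 0.76 ± 0.46 (SE), Slc25a40 by 0.22 ± 0.24 and Abcb4, a phospholipid transporter gene, by -0.21 ± 0.19, with 0 called. Dbf4 and Crot differed by -0.03 to 0.08 over 4 probe sets. Among 37 measured genes of the ABC transporter family 3 were higher and 1 lower, against 0.206% and 0.194% of all 17996 genes at 1 probe set each. The median difference of the family was -0.07, against -0.04 over all genes. Abca8a was the further higher member, with a log2 difference of 2.04 ± 0.33 (limma adjusted p = 0.039), but it differed by 0.73 from XX E11.5 and is no peak. Its call was kept in 4 of the 12 fits that left out 1 array, those without XY E11.5 pool 2, XX E11.5 pool 2 or 3 or XX E12.5 pool 1. The lower member was the cholesterol exporter gene Abca1, described with the dips.

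**Figure D3:**
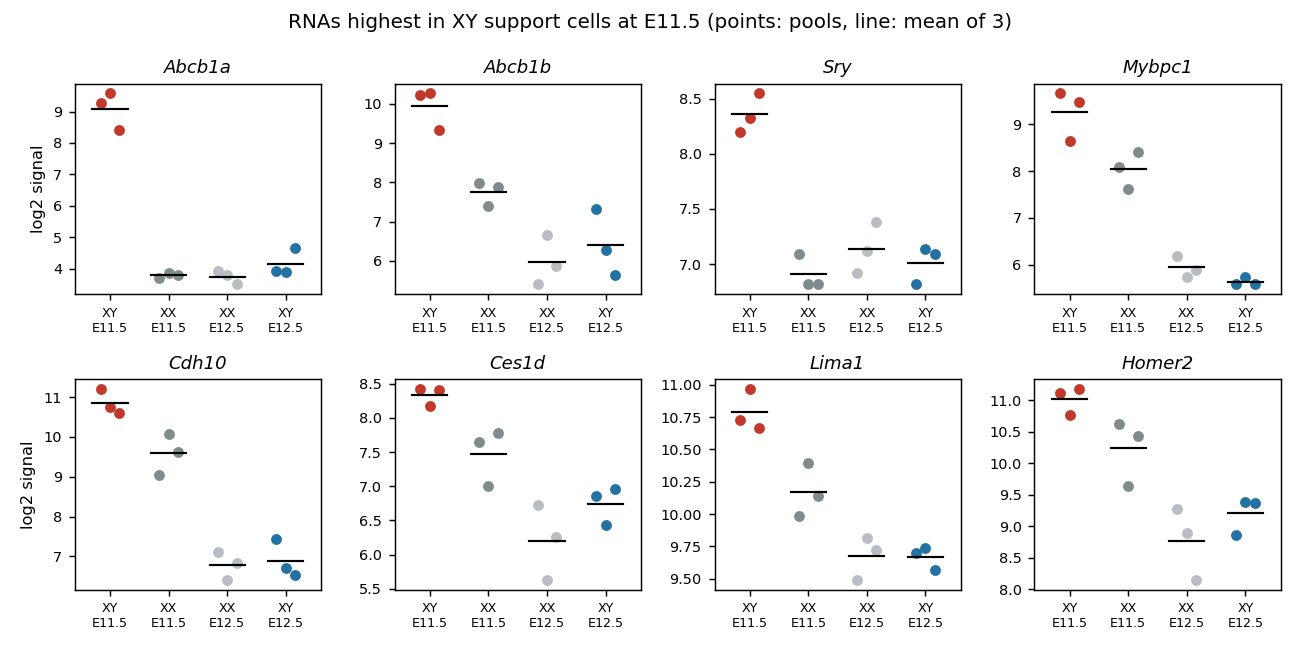
Log2 signal of each pool (points) and the mean of 3 pools (line) for RNAs highest in XY E11.5, with XY E11.5 at the left of every panel. Abcb1a lay at 8.42 to 9.58 in XY E11.5, against 3.50 to 4.67 in the other arrays, and Abcb1b, Cdh10 and Mybpc1 show XX E11.5 between XY E11.5 and the E12.5 groups.

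Sry, the other marker, also stood above every other group. Its brighter probe set read 8.20, 8.33 and 8.55 in XY E11.5, against 7.10, 6.82 and 6.82 in XX E11.5, 6.92, 7.12 and 7.39 in XX E12.5 and 6.82, 7.14 and 7.09 in XY E12.5. The XY E11.5 pools lay above the 9 others, and XY E12.5 lay within the range of XX cells. The fold was 2.52 (95% interval 2.07 to 3.08; limma adjusted p = 0.002), and the stricter test gave an adjusted p of 0.11. If the level in XX cells is the background of this probe set, that fold is a minimum. The second probe set read 5.36, 5.72 and 5.70 in XY E11.5, against 4.66 to 5.03 in the other arrays, a difference of 0.75 ± 0.11 (SE; limma adjusted p = 0.026). Its call ended without XY E11.5 pool 2 or 3, XX E11.5 pool 1 or XX E12.5 pool 2 or 3. All groups carry the Sry-EGFP reporter, and whether these probe sets detect its transcript was not tested.

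Of the 38 peak probe sets 4 map to the Y chromosome, the Sry pair and 1 each of Eif2s3y and Uty. Only the 24 peak probe sets with a symbol could be placed on a chromosome, so 4 is a minimum. Eif2s3y encodes a subunit of translation initiation factor eIF2 and Uty a paralog of the histone demethylase Utx. At the dimmer of its 2 probe sets Eif2s3y read 4.65, 4.79 and 4.86 in XY E11.5, against 3.55 to 3.64 in XX E11.5, 3.57 to 3.73 in XX E12.5 and 3.56 to 3.89 in XY E12.5. XY E12.5 was thus at the level of XX cells here. XY E11.5 read above every XX array, where the target is missing. All values lay within the background range taken from 5 other probe sets, so no size is given. This probe set passed the stricter test (limma adjusted p = 0.027), a call that ended in each of the 12 fits that left out 1 array, whereas the call in the contrast was kept in all 12. Its brighter probe set told another pattern, with 11.28, 11.36 and 11.22 in XY E11.5 and 11.21, 10.85 and 11.20 in XY E12.5, a difference of 0.20 with a limma adjusted p of 0.45. At 1 of 4 probe sets Uty read 7.23, 7.08 and 7.84 in XY E11.5, against 4.72 to 5.07 in XX E11.5, 4.66 to 5.13 in XX E12.5 and 5.87, 5.91 and 6.52 in XY E12.5. XY E12.5 lay between XY E11.5 and the XX groups, and the difference from it was 1.28 (limma adjusted p = 0.013). Of 3 called Uty probe sets only this 1 was a peak. At another the difference from XY E12.5 was 0.57 (limma adjusted p = 0.42), and the pools of the XY groups overlapped. Kdm5d, a Y-linked histone demethylase gene, read 8.73 to 9.67 in XY E11.5 and 8.77 to 9.40 in XY E12.5, so these overlapped.

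Cdh10, which encodes a type II cadherin, was high in E11.5 cells of both sexes and highest in XY. It read 11.21, 10.76 and 10.60 in XY E11.5, against 9.06, 10.08 and 9.62 in XX E11.5, 7.11, 6.40 and 6.83 in XX E12.5 and 7.42, 6.70 and 6.54 in XY E12.5. All XY E11.5 pools were above XX E11.5, which in turn was above both E12.5 groups. The fold was 8.60 (95% interval 5.78 to 12.8; limma adjusted p = 0.00079) at 1 of 4 probe sets, and the difference from XX E11.5 alone was 1.27 (adjusted p = 0.4 over all probe sets).

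Mybpc1, a gene for a myosin-binding protein of skeletal muscle, was a peak at both of its probe sets. The first read 9.66, 8.64 and 9.49 in XY E11.5, against 8.10, 7.62 and 8.41 in XX E11.5, 6.20, 5.74 and 5.89 in XX E12.5 and 5.58, 5.74 and 5.60 in XY E12.5, a log2 difference of 2.72 ± 0.22 (SE; limma adjusted p = 0.00079). The other read 9.31, 10.38 and 10.01 in XY E11.5, against 9.04, 8.36 and 8.60 in XX E11.5, 8.09, 8.29 and 7.57 in XX E12.5 and 6.49, 6.73 and 5.53 in XY E12.5. No XY E11.5 pool overlapped with another group, and XX E11.5 came next at both. At the second probe set the sexes ordered oppositely by day, with XY minus XX at 1.23 at E11.5 and -1.73 at E12.5. Against XX E11.5 alone the log2 differences were 1.22 and 1.23, with a limma adjusted p over all probe sets of 0.3 and 0.5. The call of the second probe set ended without XY E11.5 pool 3.

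Further peaks were smaller. Ces1d, a carboxylesterase gene of lipid ester hydrolysis, read 8.42, 8.18 and 8.41 in XY E11.5, against 7.01 to 7.78 in XX E11.5, 5.63 to 6.72 in XX E12.5 and 6.43 to 6.95 in XY E12.5. Its 3 probe sets each separated XY E11.5 from all other arrays, with log2 differences of 1.53 to 2.74, and 1 was called (limma adjusted p = 0.031). Stbd1, which encodes a glycogen-binding protein, differed by 1.02 ± 0.11 (SE; limma adjusted p = 0.0035), and Lima1, an actin-bundling protein gene, by 0.95 ± 0.11 (adjusted p = 0.0088) at the larger of 2 called probe sets of 5. Both had all 3 XY E11.5 pools above the other arrays and kept their calls without any 1 array. Homer2, a scaffold gene of synapses, differed by 1.62 ± 0.26 (SE; limma adjusted p = 0.039) at 1 of 3 probe sets and was separated too. Against XX E11.5 alone the log2 differences at these probe sets were 0.86 for Ces1d, 0.47 for Stbd1, 0.61 for Lima1 and 0.79 for Homer2. Their limma adjusted p over all probe sets ran from 0.32 to 0.72. The calls of Ces1d and Homer2 both ended without XY E11.5 pool 1 or 3, XX E11.5 pool 1 or XY E12.5 pool 1 or 3. That of Ces1d also ended without XX E12.5 pool 3, and that of Homer2 without pool 2 of either E12.5 group.

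Some peaks overlapped with 1 pool of XX E11.5. At Prrc2c XY E11.5 read 8.23, 8.18 and 8.35, against 5.56, 6.31 and 8.64 in XX E11.5, 4.47, 4.67 and 4.17 in XX E12.5 and 3.998, 4.49 and 4.25 in XY E12.5. The level of XX E11.5 pool 3 exceeded all XY E11.5 pools. The difference was 3.08 ± 0.49 (SE; limma adjusted p = 0.039), at 1 of 6 probe sets. Cul5, a scaffold gene of ubiquitin ligases, read 9.49, 10.16 and 10.45 in XY E11.5, against 8.35, 8.20 and 9.90 in XX E11.5, at 1 of 3 probe sets. Kif13a, a kinesin gene, read 9.42, 8.85 and 9.01 in XY E11.5, against 7.93, 7.44 and 9.19 in XX E11.5, at 1 of 5 probe sets. Akap9, which encodes a kinase anchoring protein of the Golgi and centrosome, read 8.93, 8.98 and 9.39 in XY E11.5, against 8.29, 7.95 and 8.97 in XX E11.5. This was 1 of 2 called Akap9 probe sets, of 6. The other called one differed by 3.39 from the mean of the other groups but by 0.03 from XX E11.5, and is no peak. At the peak probe set of each of the 4 genes the overlapping array was pool 3 of XX E11.5. The calls of these peaks were kept in 1 or 2 of the 12 fits that left out 1 array, among them the one without that pool. That pool carried the highest score on the component of residuals described above, and its part in these values was not tested.

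The peaks also included 14 probe sets with no gene symbol, 2 of them past the stricter test. One, numbered 1420786 on the array, read 10.54, 11.06 and 10.74 in XY E11.5, against 4.47 to 4.76 in XX E11.5, 4.37 to 4.77 in XX E12.5 and 7.61, 7.78 and 7.58 in XY E12.5. It was thus at background in both XX groups and at an intermediate level in XY E12.5. The other, numbered 1449742, read 8.59, 9.38 and 7.69 in XY E11.5, against 3.55 to 4.36 over the other arrays, a pattern like that of Abcb1a.

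Dips were fewer than peaks when all probe sets were counted, but not with 1 probe set per gene, where 12 dips stood against 10 peaks. The stricter test in limma called 0 dips, against the 116 that passed it without adjustment. Cracd, a gene for an actin regulator, was low in XY E11.5 and highest in XY E12.5. It read 7.42, 7.24 and 7.05 in XY E11.5, against 8.42, 9.64 and 8.69 in XX E11.5, 8.83, 8.76 and 8.24 in XX E12.5 and 10.14, 10.19 and 10.42 in XY E12.5. All XY E11.5 pools were below all others, 4.06-fold below their mean (95% interval 2.83 to 5.82; limma adjusted p = 0.0064). This call, at 1 of 5 probe sets, ended without XY E11.5 pool 3.

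Ano1, which encodes a calcium-activated chloride channel, read 7.11, 7.27 and 6.60 in XY E11.5, against 8.01, 8.62 and 7.80 in XX E11.5, 10.31, 10.39 and 10.74 in XX E12.5 and 8.24, 8.47 and 8.84 in XY E12.5. XX E12.5 was the highest group here, and XY E11.5 did not overlap with any. It was 4.15-fold lower (95% interval 3.01 to 5.72; limma adjusted p = 0.0027), at 1 of 2 probe sets, and kept its call without any 1 array. Srgn, the gene for the proteoglycan serglycin, read 5.24, 5.33 and 5.42 in XY E11.5, against 5.96 to 7.20 in XX E11.5, 5.77 to 6.32 in XX E12.5 and 8.36 to 9.27 in XY E12.5. It was lowest in XY E11.5 and highest in XY E12.5, with a log2 difference of -1.88 ± 0.26 (SE; limma adjusted p = 0.019), and its call ended without XY E11.5 pool 1 or 3.

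Retreg1 and Fundc1 were further dips. Retreg1, a receptor for turnover of the endoplasmic reticulum, read 7.53, 7.11 and 6.61 in XY E11.5, against 7.91 to 8.68 in XX E11.5, 8.99 to 9.53 in XX E12.5 and 8.56 to 8.98 in XY E12.5 (difference -1.70 ± 0.22, SE; limma adjusted p = 0.012). Fundc1, a receptor for mitochondria, read 7.67, 6.95 and 6.92 in XY E11.5, against 8.28 to 8.35 in XX E11.5, 8.20 to 8.79 in XX E12.5 and 8.42 to 8.99 in XY E12.5 (-1.29 ± 0.19, SE; adjusted p = 0.026). In both genes the groups did not overlap, at 1 of 2 and 1 of 3 probe sets. The call of Retreg1 ended without XY E11.5 pool 3, and that of Fundc1 without XY E11.5 pool 2 or 3, XX E11.5 pool 1, XX E12.5 pool 3 or XY E12.5 pool 3.

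Rb1, the retinoblastoma gene that restrains entry into S phase, read 9.34, 9.18 and 8.30 in XY E11.5, against 9.97 to 10.48 in XX E11.5, 9.92 to 10.35 in XX E12.5 and 10.20 to 10.72 in XY E12.5. The 3 other groups overlapped with each other and XY E11.5 lay below them, 2.48-fold below their mean (95% interval 1.75 to 3.52; limma adjusted p = 0.048). The call was at 1 of 2 probe sets and was kept in 1 of the 12 fits that left out 1 array, the one without XX E11.5 pool 3. Abca1 differed by -1.16 ± 0.19 (SE; limma adjusted p = 0.039), the epoxide hydrolase gene Ephx2 by -1.25 ± 0.21 (adjusted p = 0.044) and the tetraspanin gene Tspan4 by -0.73 ± 0.11 (adjusted p = 0.034), all without overlap. The palmitoyltransferase gene Zdhhc20 differed by -1.22 ± 0.19 (SE; adjusted p = 0.031) and overlapped with XX E11.5. Abca1 was called at 1 of 3 probe sets and Zdhhc20 at 1 of 4. Against XX E11.5 alone these 4 genes differed by -0.53 to -0.65, with a limma adjusted p over all probe sets of 0.44 to 0.72. Of the 12 fits that left out 1 array, Tspan4 and Zdhhc20 kept their calls in 5, Ephx2 in 4 and Abca1 in 3, and all 4 calls ended without XY E11.5 pool 1 or 3 and without XX E12.5 pool 2 or 3. XY E11.5 pool 3 was the lowest of its group in 8 of the 10 dips and in 12 of the 38 peaks.

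**Figure D4:**
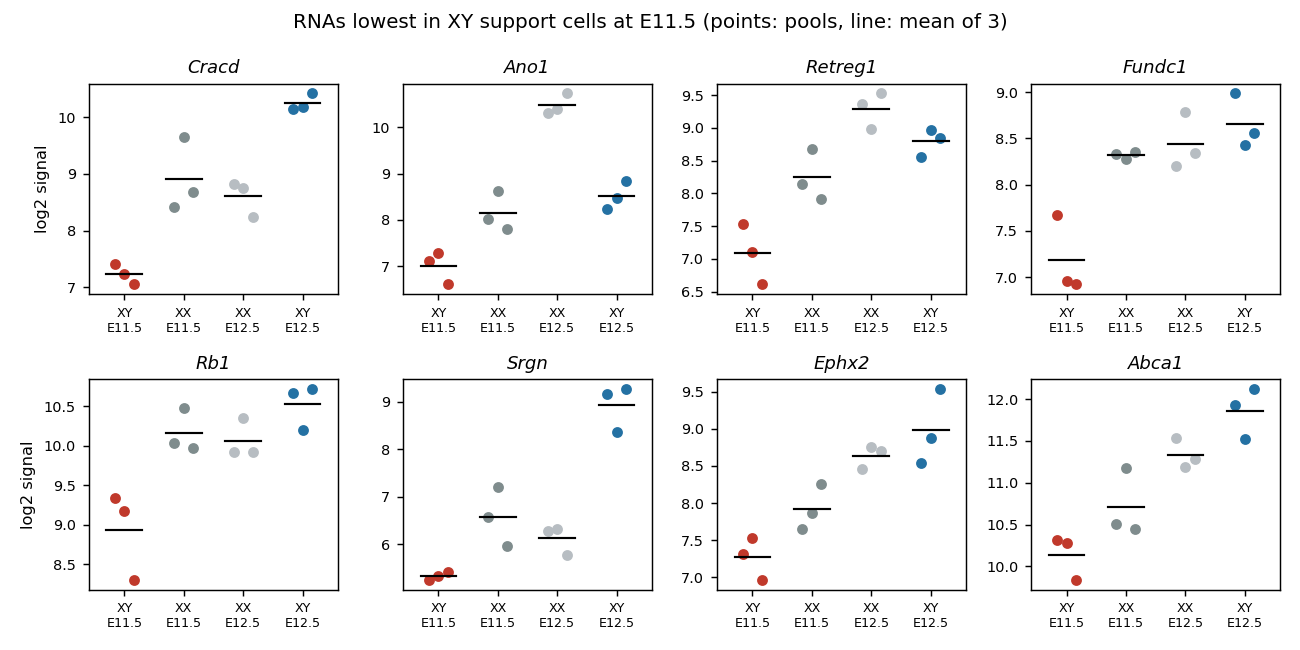
Log2 signal of each pool (points) and the mean of 3 pools (line) for RNAs lowest in XY E11.5, with XY E11.5 at the left of every panel. The XY E11.5 pools of Cracd lay at 7.05 to 7.42, against 8.24 to 10.42 in the other arrays, and those of Rb1 spread from 8.30 to 9.34.

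Several called genes were not peaks, because a second group shared their level. Sox9 read 11.50, 10.04 and 10.11 in XY E11.5, against 5.60 to 6.58 in XX E11.5, 6.03 to 6.43 in XX E12.5 and 10.04 to 10.28 in XY E12.5. It was high in both XY groups, whose values overlapped (difference 0.39, limma adjusted p = 0.64). Fgf9 behaved alike, with 12.21, 11.27 and 11.34 in XY E11.5 and 11.92, 12.02 and 12.03 in XY E12.5, against 4.61 to 7.88 over the XX arrays. Its call ended without XY E11.5 pool 1 or 3, XX E11.5 pool 1, XX E12.5 pool 3 or XY E12.5 pool 1 or 3. Cyp11a1, the enzyme gene that opens steroid synthesis, read 10.91, 11.75 and 11.62 in XY E11.5 and 10.94 to 12.05 in XX E11.5, above 8.31 to 9.50 in XX E12.5 and 6.76 to 7.85 in XY E12.5. E11.5 cells of both sexes overlapped, and the call ended without any 1 XY E11.5 pool, XX E12.5 pool 2 or 3 or XY E12.5 pool 1. Lhx9, a homeobox gene needed to form the gonad, read 12.05, 12.59 and 12.49 in XY E11.5, close to both XX groups, against 8.37 to 8.65 in XY E12.5, a difference of 3.82, and its call ended without XY E11.5 pool 3. Foxl2 was called lower (-1.42 ± 0.23, SE; limma adjusted p = 0.039) and read 7.35 to 7.77 in XY E11.5, against 11.03 to 11.11 in XX E12.5 and 7.39 to 8.01 in XY E12.5. This call was kept in 3 of the 12 fits that left out 1 array, those without XX E11.5 pool 2 or 3 or XY E12.5 pool 2.

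Among other regulators of the gonad Wt1, a zinc finger gene required for gonad formation, lay above all other arrays in XY E11.5. Its lowest pool there read 12.4506, against 12.4459 in XX E11.5 pool 3. The difference from the mean of the other groups was 0.62 ± 0.17 (SE) and was not called (limma adjusted p = 0.19). Dmrt1 differed by 0.74, Gadd45g by 0.68, Nr0b1 by 0.54, Nr5a1 by 0.49, Zfpm2 by 0.32 and Gata4 by 0.31, none called. Six4 (0.16), Map3k4 (-0.04) and Cbx2 (-0.42) were not called either. Amh, the hormone gene of the Sertoli cell, read 6.48, 6.55 and 6.48 in XY E11.5, within the range of XX cells, against 7.38, 8.87 and 7.80 in XY E12.5. Dhh, the desert hedgehog ligand gene, read 9.76, 8.53 and 7.34 in XY E11.5, against 7.16 to 7.47 in XX E11.5, 7.21 to 7.30 in XX E12.5 and 12.70 to 12.78 in XY E12.5. The 3 XY E11.5 pools of Dhh were spread over more than the distance of their mean from XX cells.

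Gene lists were counted at 1 probe set per gene, against a median of -0.04 and 41.5% of genes above 0 over all 17996 genes. Calls over all these genes were 0.206% higher and 0.194% lower. The lists share genes, so their counts are not separate results. Of 22 testis determination genes 3 were higher, Sox9, Fgf9 and Sry, and 0 lower (median 0.19). The Sertoli differentiation list had 2 higher (Sox9 and Fgf9) and 2 lower (Serpina5 and Defb19) of 27 (-0.03). The pregranulosa list had 2 higher (Lhx9 and Sulf1) and 1 lower (Foxl2) of 23 (0.01), and early gonad regulators 1 higher (Lhx9) of 17 (0.15). Against XX E11.5, XX E12.5 and XY E12.5 singly, the Sertoli median was 0.64, 0.54 and -1.87. The pregranulosa median was -0.27, -0.95 and 1.13 in that order. In both lists differences of opposite sign thus offset each other in the contrast, and a median near 0 does not mean an unchanged level. FGF and ERK response genes had 1 higher (Fgf9) of 21 (0.10) and serine synthesis and one-carbon genes 1 higher (Slc1a4) of 15 (-0.13). Of 7 Y-linked genes 4 were higher (Eif2s3y, Uty, Kdm5d and Sry), and of 4 X-inactivation RNAs Xist was lower. The compared mean includes both XX groups, so Y-linked genes and Xist can be called from sex alone. The list of 13 cell cycle inhibitors had 1 lower, Rb1, with a median of -0.21. Without XY E11.5 pool 1 the testis determination median was 0.09. Without XY E11.5 pool 3 that of early gonad regulators was 0.05, and that of FGF and ERK response genes was -0.01, and 0.06 to 0.07 without XX E11.5 pool 2 or XX E12.5 pool 2 or 3. The serine and one-carbon median was 0.01 when XX E11.5 pool 2 was left out and -0.02 when XY E12.5 pool 1 was. The median of cell cycle inhibitors was -0.315 without XX E11.5 pool 3.

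No member was called by limma in the other 18 lists, in which 30 of 340 genes were higher (8.82%) and 26 lower (7.65%) at an unadjusted p under 0.05, against 3.87% and 7.67% of all 17996 genes. Cell cycle genes had a median of -0.37 (3 of 26 above 0), WNT genes -0.25 (6 of 23), immediate early genes -0.12, Notch genes -0.07, ribosomal proteins -0.06, RGS and G protein genes -0.03, heat shock and unfolded protein response genes -0.02, nuclear-retained and long RNAs -0.01, hedgehog genes -0.01 and histone and chromatin regulators 0.01. Hypoxia and glycolysis genes had a median of 0.26 (16 of 20 above 0), and adhesion, migration and guidance genes 0.23 (19 of 28). Without XX E11.5 pool 2 the adhesion median was 0.41 and the cell cycle median -0.21. Without XY E11.5 pool 2 the cell cycle median was -0.22. That of immediate early genes was -0.19 and 0.001 without XY E11.5 pools 3 and 1, -0.08 and -0.07 without pool 2 of XY E11.5 and of XX E11.5, -0.02 without XX E11.5 pool 3 and -0.03 without XX E12.5 pool 1. Hypoxia and glycolysis genes averaged 10.2 to 10.4 in XY E11.5 and 10.3 to 10.4 in XX E11.5, against 9.87 to 10.1 in XX E12.5 and 9.87 to 9.89 in XY E12.5, so E11.5 cells of both sexes stood above E12.5 cells. Cell cycle genes averaged 8.88 to 9.50 in XY E11.5, against 8.87 to 10.6 in XX E11.5, 7.91 to 9.17 in XX E12.5 and 10.1 to 10.3 in XY E12.5, so XY E11.5 was below XY E12.5 and overlapped with both XX groups.

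Markers of other cells were read to see what moved with these results. Of 16 macrophage and leukocyte markers 0 were above 0 and 0 called (median -0.70). Their mean signal was 6.02, 6.58 and 6.63 in XY E11.5, against 6.56 to 7.83 in XX E11.5, 6.84 to 6.96 in XX E12.5 and 7.32 to 7.57 in XY E12.5. Csf1r, a macrophage receptor gene, read 8.16, 9.32 and 10.16 in XY E11.5, against 10.30 to 11.53 elsewhere, and was not called (limma adjusted p = 0.13). Macrophage markers were thus lower on average in XY E11.5 than in each other group, with overlap at pool 3 of XX E11.5. Srgn, a gene also expressed by blood cells, was lowest in the same group, and the part of such cells in that dip was not tested. Endothelial markers had a median of -0.33 (2 of 19 above 0) and interstitial mesenchyme markers of -0.42 (2 of 14), and without XX E11.5 pool 2, whose endothelial mean was 8.62 against 6.34 to 7.13 in the other 11 arrays, the medians were -0.16 and -0.18. Germ cell markers had a median of -0.20 over 18 genes (-0.32 and -0.13 without XY E11.5 pools 1 and 2), erythroid markers 0.01 over 9 and coelomic and mesonephric epithelium markers -0.04 over 15, with 0 called. Of 8 steroidogenic markers Cyp11a1 was higher (median -0.01).

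**Figure D5:**
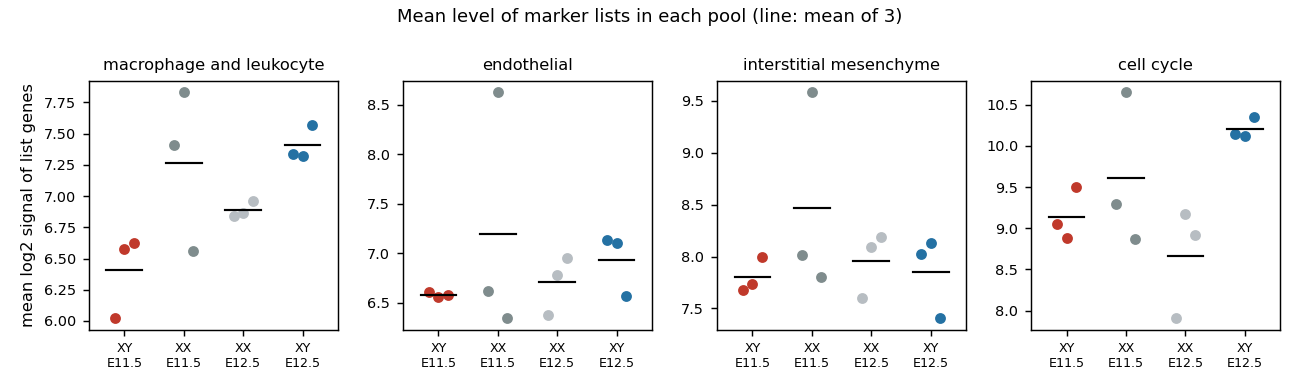
Mean log2 signal of the cell cycle list and 3 lists for other cell types in each pool (points), with the mean of 3 pools (line) and XY E11.5 at the left. Macrophage and leukocyte markers lay at 6.02 to 6.63 in XY E11.5, against 6.56 to 7.83 in the other arrays, and pool 2 of XX E11.5 is the highest array in all 4 panels.

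Against single groups, which share the XY E11.5 arrays, calls were fewest against XX E11.5 and most against XY E12.5. Against XX E11.5 30 probe sets were called (0.0678%), 24 higher (0.0543%) and 6 lower (0.0136%). Against XX E12.5 the number was 1026 (2.32%), with 471 higher (1.06%) and 555 lower (1.25%). Against XY E12.5 it was 2726 (6.16%), with 1318 higher (2.98%) and 1408 lower (3.18%). Without XY E11.5 pool 3 the calls against XX E11.5 numbered 57 in place of 30 and those against XY E12.5 1277 in place of 2726. Of the 57, 50 were higher. The 6 lower calls against XX E11.5 were 18 and 17 without XX E11.5 pools 1 and 3, and 2 without XY E11.5 pool 2. The count against XY E12.5 was also 1660 and 1369 without XY E12.5 pools 2 and 3. The 1026 calls against XX E12.5 were 278, 1926 and 407 without XY E11.5 pools 1, 2 and 3, and 266 and 234 without XX E12.5 pools 2 and 3.

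Over the 12 arrays the probe sets of named genes most like the first Abcb1a probe set by Pearson correlation were the dimmer one of Eif2s3y (0.968), the Sry probe sets (0.933 and 0.928), Hyal5 (0.912) and Atxn7 (0.886). These are correlations over 12 arrays that fall into 4 groups, and they were ranked over all probe sets, so they are a description. Over the 4 group means the closest were Cbln3, Taz, Serpind1, B3galt1 and Zfp54, at 0.9992 to 0.9999, and none of these 5 was called in the contrast.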

How the data were processed

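Total RNA of pooled, sorted cells was amplified and biotin-labelled in 2 rounds, per the labels' protocols, and read on Affymetrix arrays. The authors deposited 1 table of log2 values per probe set and array. How they were summarised and normalized is not given in the sources used here, and values were taken as log2 because the largest was 14.45. Of 45037 probe sets 44238 had a value on all arrays. Symbols came from the platform annotation, updated through RefSeq (GRCm38.p6), which matched 34126 probe sets. Genes were named only from the 34328 probe sets with 1 symbol.

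The 4 group means were fitted over 12 arrays by lmFit and eBayes of limma 3.58.1 under R 4.3.3, with two-sided tests, 8 residual and 2.11 prior degrees of freedom and Benjamini-Hochberg adjustment over 44238 probe sets. Folds are 2 raised to the log2 difference. Intervals are 95% intervals of the fit. With 3 arrays a group, the number of arrays sets the precision.

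The groups compared, gene lists and naming rule were chosen with earlier results of these data known. Named were up to 14 peaks and 14 dips with a symbol, by distance from the nearest group, every stricter call, both markers, up to 3 called members of each list by smallest p, a panel of 17 gonadal regulators and the probe sets most like Abcb1a. The smaller peaks Stbd1 and Ces1h, Abca8a, the second Mybpc1 and Lima1 probe sets, the neighbours of Abcb1a and the probe sets without a symbol were chosen after their values were seen.

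Tested on simulated data for this contrast over 44238 probe sets, 50 changed at each size, the fit called 20%, 46%, 96% and 96% of log2 changes of 0.5, 1, 2 and 3, and 16 of 145 calls were false. The simulated noise was independent between probe sets, so it lacked the shared component of the real residuals. Changed probe sets were set to 1 level in the 3 other groups. Shares found and false calls in the real data can therefore differ. Alternatives were a filter on dim probe sets, quantile normalization, median centring, a prior with a trend, array weights, a block for the pool number, a residual component as covariate, a 2-fold minimum, 1 probe set per gene, averaged probe sets for the list counts, and leaving out each array. The correlation of residuals between pools of the same number ran from -0.398 to 0.235. With 3 pools a group this cannot settle whether such pools pair. Figures were drawn with matplotlib 3.10.9 in Python 3.11.15.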

Additional observations from a re-analysis of the deposited data

Results flagged for a closer look

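The sex difference (XY minus XX) at E11.5 differed from that at E12.5 at 774 of 44238 probe sets (1.75%) in limma's test of that difference, among them 59 of the 155 contrast calls and 12 of the 48 peaks and dips. That test uses the same XY E11.5 values that chose those calls, so the 59 and 12 only describe them. The 21 that belong to peaks, dips or genes described here are given as the E11.5 value minus the E12.5 value in log2 units. Among peaks it was 4.88 and 3.85 at the Abcb1a probe sets (adjusted p = 0.00056 and 7.3e-05), 2.96 at Mybpc1 (0.019), 1.57 at Sry (0.0067), 2.27 at Ces1h (0.0021) and 0.89 at Stbd1 (0.046). It was 1.09 at the dimmer Eif2s3y probe set (0.0075), whose values all lie in the background range. At the probe sets without a symbol numbered 1420786 and 1449742 it was 3.09 (0.00026) and 4.65 (0.0019). For Abcb1a the sex difference was 5.30 at E11.5 and 0.42 at E12.5 at the first probe set.

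Among dips it was -3.32 at Cracd (adjusted p = 0.0034), -4.05 at Srgn (0.0022) and -2.27 at Zdhhc20 (0.0067), where XY was below XX at E11.5 and above it at E12.5. In Srgn the sex differences were -1.25 and 2.80.

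Among called or named genes that were neither peaks nor dips the value was 4.26 at Calb1, 3.27 at Slc1a4, 3.72 at Sulf1, 3.86 at Lhx9, 2.29 at Nr0b1 and 2.71 at Foxl2, where XY was below XX at E12.5, and -4.24 at Dhh, -4.66 at Serpina5 and -4.39 at Defb19, where it stood above XX at E12.5. Their adjusted p ran from 0.0001 to 0.028.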

How the results depend on the processing

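The contrast called 155 probe sets. It called 691 with the first residual component as a covariate, 96 with 1 probe set per gene and 13 with a 2-fold minimum. The 48 peaks and dips numbered 199, 22 and 4 under the same alternatives. The 5 stricter calls were 1 without the dimmer probe sets and 1 with 1 probe set per gene, both of which test fewer probe sets. Calls against XX E11.5 (30) were 12 with 1 probe set per gene and 18 with a 2-fold minimum. Those against XX E12.5 (1026) were 2140 with array weights, 2178 with the covariate and 46 with a 2-fold minimum. Those against XY E12.5 (2726) were 1430 with 1 probe set per gene and 277 with a 2-fold minimum. Apart from fewer probe sets tested and the size asked for by the 2-fold minimum, the cause was not tested.

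Leaving out each array gave 53 to 369 calls in the contrast, 27 to 184 peaks and dips, 4 to 5 stricter calls, and 23 to 57, 234 to 1926 and 1277 to 3077 calls against XX E11.5, XX E12.5 and XY E12.5. Called list members numbered 11 to 27, against 19. Of 48 peaks and dips 15 kept their place in every such fit, among them both Abcb1a probe sets, Abcb1b, Cdh10, Uty, Lima1, Stbd1 and Ano1. Direction turned in uncalled genes alone: Gata4 ran from -0.0058 to 0.4742, Six4 from -0.1335 to 0.3167, Map3k4 from -0.1745 to 0.08 and Dhh from -1.1577 to 0.0499.

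With the pool number as a replicate block, which the labels do not say pairs pools, there were 138 calls, 50 peaks and dips and 4 stricter calls, and 33 of the 48 were kept. Values in the background range can understate differences. Among others, this touches both Abcb1a probe sets, the dimmer ones of Eif2s3y and Sry, and those numbered 1420786 and 1449742. It also touches Uty in XX cells and Prrc2c in E12.5 cells.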

Other observations

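Both carboxylesterase genes among the peaks, Ces1d and Ces1h, belong to 1 gene family on chromosome 8, and the rest of that family was read after their values were seen. Ces1h read 8.71, 9.16 and 8.77 in XY E11.5, against 8.13 to 8.64 in XX E11.5, 8.28 to 8.52 in XX E12.5 and 6.39 to 6.84 in XY E12.5 (difference 1.06 ± 0.14, SE; limma adjusted p = 0.016). Its call ended without XY E11.5 pool 1 or 3. XY E11.5 lay just above both XX groups, and XY E12.5 was the group that stood apart. Ces1c, Ces1e, Ces1f and Ces1g differed by 0.03, -0.04, 0.27 and 0.40, and Ces2a, Ces2b, Ces2e and Ces2g by -0.13, -0.17, -0.14 and -0.30. Ces5a differed by 0.13 to 0.16 over 3 probe sets, at 1 of which all XY E11.5 pools lay above the other arrays. None of these 9 genes was called by limma or had an unadjusted p under 0.05. Members of such a family can share sequence, and cross-hybridization between them was not tested.

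RNAs shared by E11.5 cells of both sexes were the largest class of higher calls. They included Malat1, a nuclear RNA, at 2 of 7 probe sets (3.68 ± 0.60 and 3.45 ± 0.46, SE), with differences from XX E11.5 of 0.41 and 0.40. Calb1, a calcium-binding protein gene, differed by 2.88 ± 0.46 (SE) at 1 of 4 probe sets and by 0.15 from XX E11.5, and its call was kept in 4 of the 12 fits that left out 1 array. The chloride channel gene Cftr differed by 1.92 ± 0.27 (SE) at 1 of 2 probe sets and by 0.16 from XX E11.5. The call of the second Malat1 probe set and that of Cftr ended without XY E11.5 pool 1 or 3, and that of the first was kept in 3 of the 12 fits. These genes were chosen after their values were seen.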
